A study of Mus musculus with 4 samples.

Results

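The genes described here are Alx1, Alx4, Prrx1 and Prrx2, which encode homeodomain transcription factors of the paired class. They were chosen by name, and their open regions were taken as those whose midpoint lay nearest to one of their transcription start sites (TSSs) among protein-coding genes, or that overlapped 1 kb either side of such a site. This gave 63 of the 121574 open regions in the deposited table, with 25 at Alx1, 16 at Alx4, 12 at Prrx2 and 10 at Prrx1. The assay was ATAC-seq, which reads out where a transposase can reach the DNA, and the cells were incisor dental mesenchyme of wild-type mice, 4 weeks old and untreated. The strain is C57BL/6 in the sample labels and C57BL/6J in the protocols, and the sources used here give neither sex nor number of animals. All 4 deposited samples belonged to that 1 group and were lanes of 1 library, whose values stood under 1 shared name. There was therefore no replicate error, no contrast between conditions and no test, and the values below describe this library alone.

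Paired-class homeodomain proteins bind short AT-rich DNA sites, often as dimers, and the Alx and Prrx factors act mainly in the mesenchyme that the neural crest supplies to the face and in the limb buds. Alx1 and Alx4 are needed for the midface and skull in mice, and loss of the human genes causes clefting disorders of the nose and forehead. Prrx1 and Prrx2 are close paralogs, and mice lacking both have a shortened lower jaw with missing or fused lower incisors. In human facial mesenchyme, ALX4 binds together with the basic helix-loop-helix factor TWIST1 at a joint site made of an E-box and a homeodomain core.

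The library held 2297894 reads in regions, and a region had a median of 7 reads. Ranges in brackets after reads are exact 95% Poisson intervals. They take every read as independent and cover counting error only. Whether duplicates were removed, or mates counted apart, the sources used here do not give, and such reads would make the intervals too narrow. Of all 21851 protein-coding genes, 16819 had a region and 64.6% had one at a promoter. Of those with a region, 49.8% exceeded the median gene, which had 85 reads. Of 10 listed markers of dental mesenchyme all had a region and 9 had one at a promoter, Barx1 being the exception. The median gene was exceeded by 9 of the 10. Lists of other cell types differed. Of 5 skeletal muscle markers all had a region, 1 had one at a promoter and 0 exceeded the median gene. Of 5 odontoblast markers 4 had a promoter region and 4 exceeded the median gene. Of 4 bone markers 3 had a promoter region and 2 exceeded the median gene. Of 7 dental epithelium markers all had a region, 5 had one at a promoter and 3 exceeded the median gene. The enamel gene Ambn had 112 promoter reads, whereas the enamel genes Amelx and Enam had 0 each. Of 6 endothelial markers all had a region, 5 had one at a promoter and 4 exceeded the median gene. Their reads ran from 16 at Tie1 to 1032 at Cdh5, which had 13 at its promoter. Of 7 leukocyte markers 6 had a region, up to 591 reads at Ptprc, none had one at a promoter and 2 exceeded the median gene. Per kb of span, the sequence nearest to a gene's TSSs, 50% of genes with a region exceeded the median gene. On that scale 8 of 10 dental mesenchyme, 5 of 7 dental epithelium, 3 of 5 odontoblast and 3 of 4 bone markers did so. Of those with a region, 2 of 6 endothelial, 1 of 6 leukocyte and 0 of 5 skeletal muscle markers did so. The part of other cell types in the values below was not tested.

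The following sequences are shown because they carry the promoter and the distal openings described below. The promoters of Prrx1 and Prrx2 are those of RefSeq on GRCm38.p6, from 250 bases before to 50 after its TSS, and Alx1 and Alx4 had no entry in that table. The other sequences are 300 bases around the midpoint of an open region, read from GRCm38 (mm10) on the strand of the gene. Capitals mark TAATTA (homeodomain), CAGATG or CATCTG (the E-box preferred by Twist factors), TGTGGT (Runx) and TGANTCA (AP-1), each searched on both strands. The Alx4 region was chosen, after the values were seen, as its TAATTA region with the most reads, and the other 2 distal ones, at Alx1 and Prrx2, as the largest of their gene.
Prrx1 promoter, chr1:163313601-163313900, minus strand: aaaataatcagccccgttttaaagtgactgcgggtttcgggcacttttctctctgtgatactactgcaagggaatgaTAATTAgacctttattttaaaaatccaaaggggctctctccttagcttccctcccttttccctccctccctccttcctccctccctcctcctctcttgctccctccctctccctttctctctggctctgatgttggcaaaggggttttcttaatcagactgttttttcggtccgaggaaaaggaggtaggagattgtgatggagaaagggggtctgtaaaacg
Prrx2 promoter, chr2:30845117-30845416, plus strand: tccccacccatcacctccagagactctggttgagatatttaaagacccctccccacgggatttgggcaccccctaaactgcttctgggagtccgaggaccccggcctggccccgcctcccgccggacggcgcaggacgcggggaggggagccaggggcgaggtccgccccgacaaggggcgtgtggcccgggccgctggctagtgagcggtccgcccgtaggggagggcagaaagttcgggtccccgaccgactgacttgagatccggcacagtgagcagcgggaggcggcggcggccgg
Alx1, 85.4 kb downstream of a TSS, chr10:102943214-102943513, minus strand: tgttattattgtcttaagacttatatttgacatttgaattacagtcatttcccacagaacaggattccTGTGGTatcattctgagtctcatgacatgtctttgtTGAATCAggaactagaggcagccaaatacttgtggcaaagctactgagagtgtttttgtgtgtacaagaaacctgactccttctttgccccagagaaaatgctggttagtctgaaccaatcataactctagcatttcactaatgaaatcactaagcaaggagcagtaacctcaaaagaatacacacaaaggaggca
Alx4, 22.0 kb upstream, chr2:93620248-93620547, plus strand: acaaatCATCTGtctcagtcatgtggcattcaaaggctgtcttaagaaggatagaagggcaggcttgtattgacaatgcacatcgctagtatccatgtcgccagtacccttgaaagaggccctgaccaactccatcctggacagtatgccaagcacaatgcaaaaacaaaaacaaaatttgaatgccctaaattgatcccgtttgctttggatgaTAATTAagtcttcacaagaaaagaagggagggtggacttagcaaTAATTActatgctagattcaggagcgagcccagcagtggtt
Prrx2, intronic, chr2:30836611-30836910, plus strand: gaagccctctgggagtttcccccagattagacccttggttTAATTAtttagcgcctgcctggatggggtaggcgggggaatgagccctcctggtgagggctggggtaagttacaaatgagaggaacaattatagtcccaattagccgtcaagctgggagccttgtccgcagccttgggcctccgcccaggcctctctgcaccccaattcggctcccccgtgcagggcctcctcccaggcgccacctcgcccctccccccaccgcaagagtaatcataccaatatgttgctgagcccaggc

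The 4 genes differed widely in reads, with Alx1 far above the others and Prrx1 near the median gene. Alx1 had 459 reads (418 to 503), Alx4 had 257 (227 to 290), Prrx2 had 153 (130 to 179) and Prrx1 had 89 (71.5 to 110). None of these intervals overlapped, so each gene differed from its neighbour in the order by more than counting error. All 4 exceeded the median of 85 reads over the 16819 protein-coding genes with a region, against 49.8% of those genes, and Prrx1 lay only just above it. Their percentiles were 95.7 for Alx1, 85.9 for Alx4, 70.2 for Prrx2 and 51.5 for Prrx1. The sequence nearest to their TSSs spanned 349 kb for Alx1, 131 kb for Alx4, 159 kb for Prrx1 and 41.5 kb for Prrx2, against a median of 56.5 kb, and it enters these sums.

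Scaling by that span changed the order. Prrx2, the gene with the smallest territory, then came first with 3.68 reads per kb of span (3.12 to 4.32), followed by Alx4 with 1.96 (1.73 to 2.22) and Alx1 with 1.32 (1.2 to 1.44). Prrx1 remained last with 0.56 reads per kb of span (0.449 to 0.689), at the 27.2th percentile, whereas Prrx2 stood at the 81.1th, Alx4 at the 64.2th and Alx1 at the 51.1th. Per kilobase of open region, Alx1 had 63 reads (57.4 to 69.0), Alx4 had 46.0 (40.5 to 52.0), Prrx2 had 41.9 (35.5 to 49.1) and Prrx1 had 33.0 (26.5 to 40.7), against 48.8 for the median gene. On that scale the intervals of Alx4, Prrx2 and Prrx1 overlapped, and Alx1 lay above all of them. Prrx1 was last by total reads, by reads away from promoters and on both scales per kilobase, and Prrx2 was last by promoter reads.

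**Figure D1:**
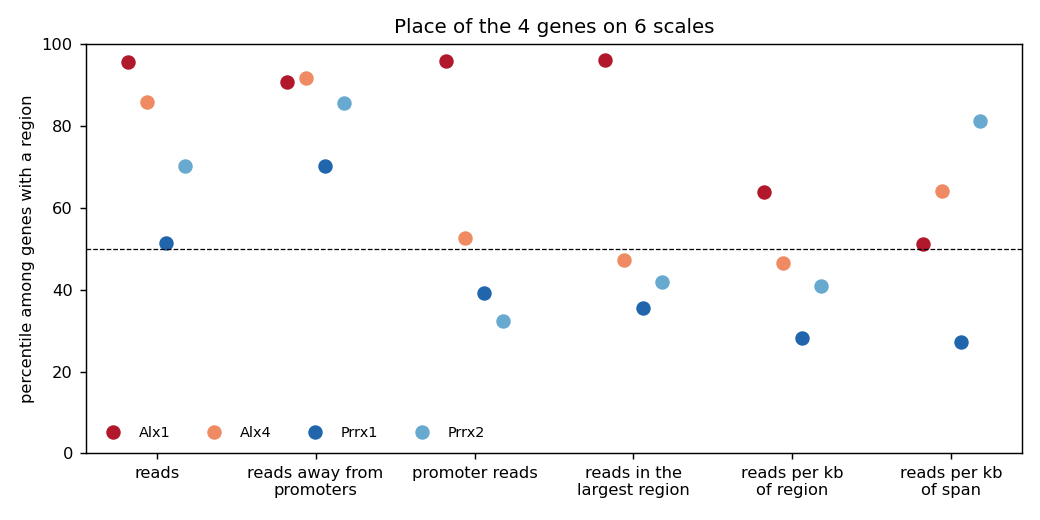
Percentile of each of the 4 genes (y axis, 0 to 100) among 16819 protein-coding genes with a region, on 6 scales of accessibility (x axis); the dashed line is the median gene. Alx1 lies at 95.7 for reads and 51.1 for reads per kb of span, and Prrx1 at 51.5 and 27.2.

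The genes also differed in where their reads lay. A region within 1 kb of a TSS was present at all 4 genes, as at 64.6% of all protein-coding genes. These regions held 269 reads (238 to 303) at Alx1, 53 (39.7 to 69.3) at Alx4, 30 (20.2 to 42.8) at Prrx1 and 19 (11.4 to 29.7) at Prrx2, against a median of 48 promoter reads. The intervals of Alx4 and Prrx1 overlapped, as did those of Prrx1 and Prrx2, and only Alx1 stood clear of all others. Promoter reads made up 58.6% of the reads of Alx1 (exact 95% binomial interval 53.9% to 63.2%), 20.6% at Alx4 (15.8% to 26.1%), 33.7% at Prrx1 (24% to 44.5%) and 12.4% at Prrx2 (7.64% to 18.7%). Over all regions in the library, 50.5% of reads lay in the promoter class.

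Away from promoters all 4 genes exceeded the median gene, which had 22 reads there. These counts are not scaled by span, and Alx1, Alx4 and Prrx1 had territories wider than the median of 56.5 kb. Alx4 had 204 reads (177 to 234) in 14 such regions, at the 91.6th percentile, and Alx1 had 190 (164 to 219) in 22, at the 90.8th. Their intervals overlapped, so the lead of Alx1 in total reads rested on its promoter. Prrx2 had 134 reads (112 to 159) in 10 regions, at the 85.7th percentile, and Prrx1 had 59 (44.9 to 76.1) in 8, at the 70.2th.

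**Figure D2:**
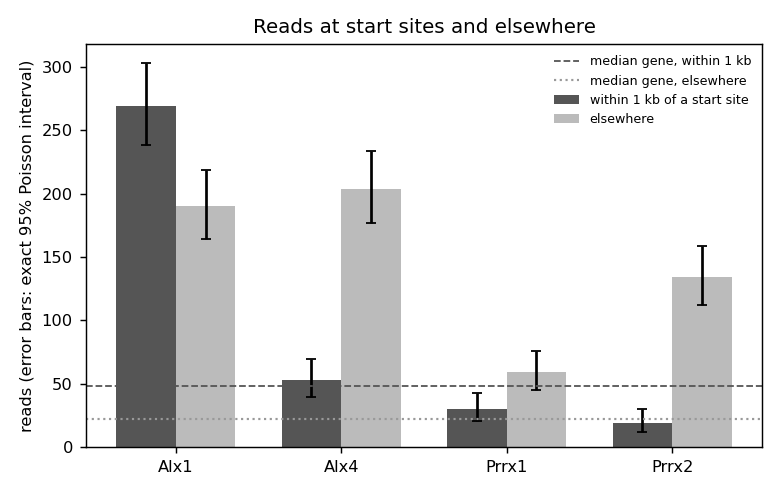
Reads in regions within 1 kb of a TSS (dark bars) and elsewhere (light bars) for each gene; the y axis is reads, error bars are exact 95% Poisson intervals, and the dashed and dotted lines are the medians over genes with a region, 48 and 22 reads. Alx1 alone has more promoter reads, 269, than reads elsewhere, 190.

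At Alx1, a factor of the frontonasal mesenchyme on the minus strand of chromosome 10, 1 region held most of the reads. It ran from 103028198 to 103029106, covered 3 of the 5 annotated TSSs and had 258 reads (227 to 291), with its midpoint in untranslated exon sequence 125 bp downstream of a TSS. It held 56.2% of the reads of the gene (51.5% to 60.8%), below the median share of 69.5% over 16701 genes with a read. The median gene with a region had 4 regions, against 25 at Alx1. The region lay at the 97.6th percentile of promoter regions, with 284 reads per kb. The region beside the most upstream TSS, which lay at 103030215 inside the long noncoding RNA Gm17028 on the same strand, ran from 103029941 to 103030119 and had 10 reads (4.80 to 18.4). With the most upstream TSS alone, promoter reads of Alx1 were 11 in place of 269, so the opening lay over the inner start sites. By promoter reads over all its start sites Alx1 lay at the 95.8th percentile of genes with a region.

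The rest of the Alx1 locus was thinly open and lay mostly on the downstream side. The neighbouring TSS lay 489 kb away on the downstream side and 206 kb away upstream, so more sequence was assigned downstream. Regions beyond the 3' end of the gene held 146 reads in 15 regions, against 28 reads in 5 regions upstream of the gene. The largest of them, in intergenic sequence 85.4 kb downstream of a TSS from 102943122 to 102943604, had 56 reads (42.3 to 72.7), at the 97.5th percentile of regions away from promoters. Its sequence, printed above, held no CpG and had 1 TGTGGT and 1 TGANTCA match. A run of 7 regions no more than 5 kb apart, from 102878067 to 102884214, held 55 reads (41.4 to 71.6) between 145 and 151 kb downstream, and its largest region had 19 (11.4 to 29.7). Upstream of all start sites, the nearest opening was an abutting pair from 103034812 to 103035598, 4.76 to 5.16 kb away, with 7 reads (2.81 to 14.4) and 13 (6.92 to 22.2). Beyond 100 kb lay 13 of the 25 regions and 84 reads, or 18.3% of the reads of the gene against 12.8% over all regions. Upstream, 3 regions lay in the body of the neighbouring gene Lrriq1, with 1 and 7 reads in introns and 0 reads (0 to 3.69) in a coding exon. The other 10 regions of Alx1 had from 1 to 12 reads, and 1 of them, with 1 read, lay at the promoter between the regions of 258 and 10 reads.

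At Alx4, a factor of the skull, midface and limb on the plus strand of chromosome 2, reads were spread over several openings of similar size. The regions on either side of the TSS, from 93641871 to 93642234 and from 93642538 to 93642892, had 26 reads (17.0 to 38.1) and 27 (17.8 to 39.3). Both annotated TSSs lay in the gap between them, 150 bp from the nearest edge. A pair of abutting intronic regions from 93648889 to 93649816 had 53 reads together (39.7 to 69.3), as many as the promoter, and lay 6.68 to 7.14 kb downstream; the larger part had 32 (21.9 to 45.2). An abutting pair 22.0 to 22.6 kb upstream, from 93619316 to 93620570, had 61 reads (46.7 to 78.4), as 37 (26.1 to 51.0) and 24 (15.4 to 35.7). The smaller of these held 2 TAATTA matches and 1 CATCTG in the sequence printed above. The largest single region, from 93690247 to 93690805, had 44 reads (32.0 to 59.1) and lay 48.1 kb downstream of the TSS, past the end of Alx4 in an intron of the convergent gene Ext2, which encodes a heparan sulphate polymerase. The neighbouring TSS lay 81.8 kb away upstream and 180 kb away downstream, so nearest-TSS assignment could give Alx4 no region over 100 kb away. Regions 10 to 50 kb from the TSS held 58.0% of its reads, against 18.6% over all regions, and the width of this territory enters that share. The other 9 regions had from 1 to 8 reads. A CpG count of 5.39 per 100 bp around the most upstream TSS put Alx4 in the middle of 3 promoter classes of near equal size. In that class of 7269 genes the median was 37 promoter reads, and Alx4 lay at the 60.8th percentile.

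**Figure D3:**
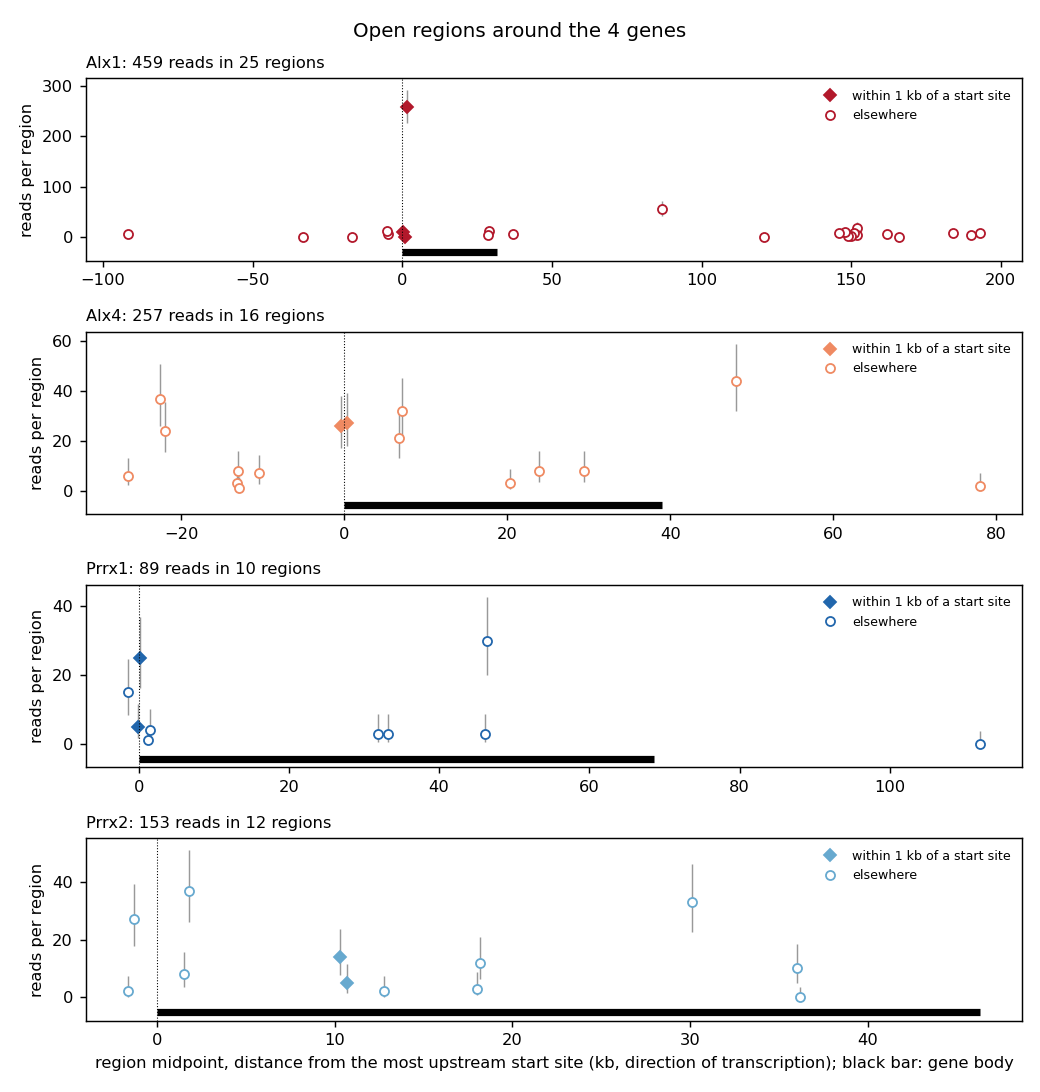
Reads of each open region (y axis, linear, grey lines exact 95% Poisson intervals) by the distance of its midpoint from the most upstream TSS (x axis, kb, in the direction of transcription); filled diamonds lie within 1 kb of a TSS, open circles elsewhere, and black bars show the gene bodies. The scales differ between panels: the largest region has 258 reads at Alx1, 44 at Alx4, 30 at Prrx1 and 37 at Prrx2.

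Prrx1, which marks mesenchymal progenitors of limb, skull and jaw and lies on the minus strand of chromosome 1, had the fewest reads and regions of the 4 genes. The region over its 3 annotated TSSs, from 163313394 to 163313710, had 25 reads (16.2 to 36.9), and the abutting one upstream had 5 (1.62 to 11.7). Just outside the 1 kb window, a region 1.41 kb upstream, from 163314883 to 163315348, had 15 reads (8.4 to 24.7), and with 2 kb windows the promoter reads were 50 in place of 30. In the CpG class of Alx4, Alx1, with 4.1 per 100 bp, lay at the 98.2th percentile of promoter reads. Prrx1, with 2.6 per 100 bp, lay in the same class at the 44.4th. The largest region away from the promoter, in an intron, had 30 reads (20.2 to 42.8), as many as both promoter regions together. The remaining 6 regions had from 0 to 4 reads, and the only one beyond 50 kb, 112 kb downstream, had 0 reads. Counting TSSs of noncoding genes as well left Prrx1 with 50 reads in place of 89; the antisense gene Gm20471 starts within its body.

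Prrx2, expressed with Prrx1 in craniofacial mesenchyme and lying on the plus strand of chromosome 2, had more reads beside its outer start site than on either start site. Its TSSs lay at 30834972 and 30845059. The inner TSS was covered by a region of 14 reads (7.65 to 23.5), from 30845059 to 30845404, abutting another of 5 reads. No region lay within 1 kb of the outer TSS, and the nearest ended 1068 bp upstream of it. Within 2 kb of the outer TSS, 4 regions in 2 abutting pairs held 74 reads (58.1 to 92.9). The larger pair, from 30836397 to 30836926 in the first intron of the longer transcript, had 45 reads (32.8 to 60.2), of which 37 (26.1 to 51.0) fell in a region 1.79 kb downstream that held 1 TAATTA. The upstream pair, from 30833283 to 30833904, had 29 reads (19.4 to 41.6), of which 27 (17.8 to 39.3) fell in a region that also held 1 TAATTA. With 2 kb windows the promoter reads of Prrx2 were therefore 93 in place of 19, the largest change of the 4 genes. Apart from these, an intronic region 20 kb from the inner TSS, from 30864713 to 30865415, had 33 reads (22.7 to 46.3), and the other 5 regions had from 0 to 12. Around the outer TSS Prrx2 had 1.6 CpG per 100 bp, which put it in the low CpG class. The median there was 0 promoter reads, and Prrx2 lay at the 91.2th percentile with its 19 reads, all at the inner TSS. The regions at the inner TSS had 7.23 and 11.1 CpG per 100 bp, so the low class does not describe the site that held the reads. Among all genes with a region Prrx2 lay at the 32.3th percentile of promoter reads. The RefSeq promoter printed above starts further inside the gene than the inner GENCODE site. It had none of the capitalised motifs, 28 CpG pairs and a GC content of 70.3%, against 6 pairs and 47.7% for that of Prrx1.

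The genes bounding these territories had reads of their own. At Alx1 they were Rassf9 with 190 reads (164 to 219) and Lrriq1 with 25 (16.2 to 36.9). Alx4 lay between the gene model Gm10803 with 84 (67 to 104) and Ext2 with 266 (235 to 300). Prrx1 lay between Mroh9 with 43 (31.1 to 57.9) and Gorab with 137 (115 to 162), and promoter reads were 30 at Prrx1 against 82 at Gorab. At Prrx2 the adjoining gene Asb6, whose TSS lay 4.64 kb away, had 55 reads (41.4 to 71.6), and Ptges had 37 (26.1 to 51.0). Nearest-TSS assignment need not name the gene a region acts on.

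As a set, the 63 regions resembled the library in size. Their median was 7 reads, with quartiles of 3 and 14.5, and their median width 266 bp. Over all regions the median was likewise 7 reads, with quartiles of 3 and 16, and the median width 261 bp. At least 10 reads were present in 23 of the 63, or 36.5%, against 39.0% of all regions, and 0 reads in 3, against 5.84%. Another region abutted 29 of the 63, against 38.5% of all regions. Promoter regions made up 14.3% of the 63, against 20.1%, and intergenic ones 42.9%, against 33.9%. Median GC content was 42.9% at Alx1, 49.7% at Prrx1, 54.4% at Alx4 and 58.3% at Prrx2, against 50.3% over all regions.

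Consensus sites were counted as exact matches on both strands, at most once a region, for 17 patterns. Each count was set beside the number that the share of all regions of like width and kind (promoter or not) would give in 63 regions. TAATTA, the homeodomain site that the Alx and Prrx proteins themselves can bind, was in 11 regions, against 7.72 at that share and 11.4% of all regions. It lay in 4 regions of Alx1, 3 of Prrx1 and 2 each of Alx4 and Prrx2. Both promoter regions of Prrx1 and the one 1.41 kb upstream held it, and it was in the printed promoter of Prrx1 but not in that of Prrx2. Of 32851 RefSeq promoters of that length, 5.29% held it. CTTTGAT, read by the Wnt effectors Tcf and Lef, was in 7 regions, against 2.66 at the share of like regions and 4.08% of all regions. Of those 7, 3 belonged to Prrx1, 2 to Alx1 and 2 to Prrx2, and none to Alx4.

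Of the remaining patterns, most lay near or below that share. CAGATG was in 16 regions, against 14.4 at the share of like regions and 22.4% of all regions, with 6 at Alx4 and 5 at Alx1. CAGATG with ATTA on either strand within 10 bases, an arrangement akin to the joint TWIST1 and ALX4 site, was in 1 region, intronic in Alx1, against 1.95 and 2.89% of all regions. The dimer of inverted TAAT cores 3 bases apart, bound by pairs of paired-class proteins, was in 0 regions, against 0.239 and 0.349% of all regions. The Runx pattern TGTGGT was in 10, against 14.5 and 22.4% of all regions, and the AP-1 pattern TGANTCA in 7, against 6.22 and 9.52%. The core of the insulator protein CTCF was in 1, a region of coding exon beside the inner Prrx2 start, against 4.14 and 6.5%. The TATA box TATAAA was in 11, 8 of them at Alx1, against 7 and 10.6%.

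The patterns left lay close to that share or below it. CATATG was in 1 region, against 2.52 at the share of like regions and 3.76% of all regions, and the Zeb and Snail site CACCTG was in 6, against 9.25 and 15.8%. The TEAD site GGAATG was in 9, against 11.4 and 17.8%, and the Sox core ACAANG in 24, against 28.6 and 45%. The Sp and Klf site GGGCGG was in 10, against 9.63 and 19.1%, and the NFY site CCAAT in 21, against 19.0 and 30.5%. The Gli site TGGGTGGTC was in 0, against 0.212 and 0.338%, and the NFI palindrome in 0, against 0.036 and 0.0526%. The dimer can contain TAATTA, and CAGATG with ATTA is counted under CAGATG too. With so few regions these counts describe the loci and carry no test.

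**Figure D4:**
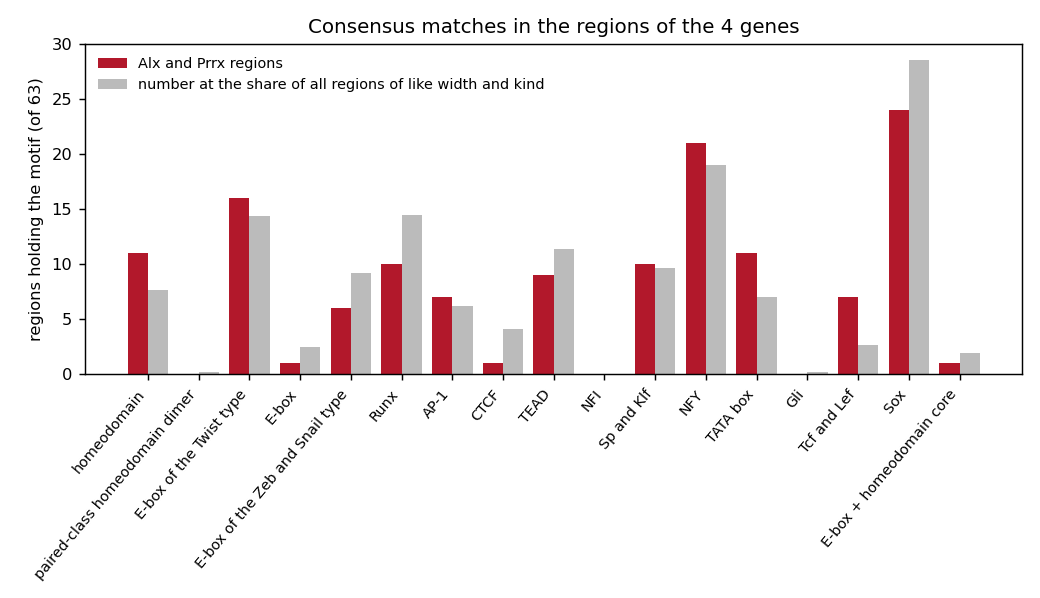
Number of the 63 regions holding each of 17 consensus patterns (red) beside the number given by the share of all regions of like width and kind (grey); the y axis counts regions and the x axis names the factor family. The homeodomain pattern stands at 11 against 7.72, and the Tcf and Lef pattern at 7 against 2.66.

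Among relatives, the other genes of the paired class were mostly less accessible. Of 26 listed relatives, 25 were matched in the annotation and 23 had a region. The median gene was exceeded by 4 of 4 Alx and Prrx genes, against 6 of the 23 relatives and 49.8% of all genes with a region. The interval of Prrx1, 71.5 to 110 reads, included the 85 reads of the median gene. The median was 205 reads for the Alx and Prrx genes, against 26 for the relatives with a region. Median promoter reads, counting genes without a region as 0, were 41.5 for the Alx and Prrx genes, against 0 for the relatives and 26 for all genes. The median span was 145 kb for the Alx and Prrx genes and 87.0 kb for the relatives, of which 3 of 23 exceeded the median gene per kb of span, against 50% of all genes with a region. Of those named here, the intestinal factor gene Isx had 196 (170 to 225) with no promoter reads, and Gsc, active in jaw mesenchyme, had 191 (165 to 220). Shox2, a limb and palate factor related to the Prrx genes, had 87 (69.7 to 107), overlapping Prrx1. Mixl1 and Uncx, at the low end of the list, had 4 reads each.

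Factors that act with Alx and Prrx proteins or share their mesenchyme mostly exceeded the median gene in total reads, but not per kilobase of span. Of 20 listed, all had a region, 19 exceeded the median gene and 18 had a promoter region, with a median of 299 reads. Over all genes with a region 49.8% exceeded the median gene, and 64.6% of all protein-coding genes had a promoter region. Their median span was 290 kb, against 56.5 kb for the median gene. Per kb of span, the median gene was exceeded by 3 of the 4 Alx and Prrx genes and by 9 of these 20. Msx2, a homeobox factor of tooth mesenchyme, had the most with 1061 reads (998 to 1126.8), and Six2 had the fewest with 81 (64.3 to 101). Twist1, the partner of ALX4 in human facial mesenchyme, had 199 reads (172 to 229), of which 157 were promoter reads, a higher promoter count than at Alx4, Prrx1 or Prrx2. With 11.4 CpG per 100 bp Twist1 lay in the high CpG class, where the median was 91 promoter reads. Alx4, Prrx1 and Prrx2 lay in the middle or low class. Of 13 genes known from work on Prrx1 or Prrx2, 12 had a nearest region and 10 exceeded the median gene. Per kb of span 3 did so, and the median span was 261 kb. Zeb2, a repressor of epithelial genes, was highest with 1039 (977 to 1104.1), and Meox2 lowest with 47 (34.5 to 62.5). Foxm1 had no region nearest to its TSS but 85 reads in regions overlapping its promoter.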

How the data were processed

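ATAC-seq of dental mesenchymal cells from incisors of wild-type mice aged 4 weeks was sequenced on a NextSeq500, aligned to mm10 with BWA-MEM, and peaks were called with MACS2, per the labels' protocols. STAR 2.6.1d and Partek are listed without roles in the submitters' processing notes. Transposase offset, duplicates and mitochondrial reads are not described in the sources used here; duplicates left in would raise some counts.

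The authors deposited a table of 121574 regions in CPM, made from reads plus 1 over a total that is not stated. Values were whole multiples of 0.0484 CPM for 99.9% of regions (tolerance 0.01 read, 84 exceptions, 0 of them here), which gave the reads of each region as that multiple less 1. The authors also deposited expected counts for 16382 regions, which cover Alx1 and equalled the recovered reads within 0.00155; 10 were not whole. A further 1 value column had no sample and was not used. With 1 library no count test was made.

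Regions were assigned by midpoint to the nearest of the TSSs of 21851 protein-coding genes (GENCODE vM21 basic), and 0 regions entered by promoter overlap alone. Promoter class means a midpoint within 1 kb of a TSS, whereas promoter reads count any region that overlaps that window. Percentiles count ties at midrank. Motif shares used 10 width classes, and CpG was counted 500 bp either side of the most upstream TSS. Coordinates are written from 1. Python 3.11.15, pandas 2.3.3 and scipy 1.17.1 were used, and assignment and intervals were checked on simulated data.

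The genes and lists were chosen with earlier results of these data known. Named were, by a fixed rule, the 4 genes with their promoter regions, 3 largest regions elsewhere and nearest upstream region, the adjoining genes, the highest 3 and the lowest of the paired-class list with Shox2, and the highest and lowest of the 2 other lists. Some items that this rule names are not reported here.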

Additional observations from a re-analysis of the deposited data

How the results depend on the processing

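With regions under 10 reads left out, Alx1 had 378 reads in 7 regions, Alx4 211 in 7, Prrx1 70 in 3 and Prrx2 133 in 6. With TSSs of every gene type, Alx1 had 347 and Prrx1 50 reads, and within 100 kb Alx1 had 375. The order of the 4 genes by reads was Alx1, Alx4, Prrx2 and Prrx1 in each of these settings. Measuring from the region's edge left all 4 sums equal, as did the shorter table for Alx1, the one gene it holds; the most upstream TSS gave 143 reads at Prrx2. With the most upstream TSS alone, promoter reads were 11 at Alx1 and 0 at Prrx2, and with 2 kb windows 50 at Prrx1 and 93 at Prrx2; 500 bp windows changed none of the 4. Percentiles per kb of span were 51.1 for Alx1, 64.2 for Alx4, 27.2 for Prrx1 and 81.1 for Prrx2. By the largest region they were 47.2 for Alx4, 35.5 for Prrx1 and 41.9 for Prrx2, and with genes without a region at 0 they were 96.7, 89.1, 62.6 and 77.1 for Alx1, Alx4, Prrx1 and Prrx2. Merging abutting regions left 7 at Prrx2. In 300 bases around midpoints, CATATG and CAGATG with ATTA were each in 2 regions in place of 1. The lanes shared 1 value column, so none could be left out. No paired analysis was possible because there was 1 group. Depth limits most regions here: the median of 7 reads has an interval of 2.81 to 14.4.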

Other observations

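Noncoding genes overlapped the stretch between the outermost regions of Alx1 (3 genes) and of Prrx1 (3 genes). The antisense gene Gm20471 in the Prrx1 intron had 2 regions with 6 reads in its body, and the long noncoding RNA Gm26523 and the gene model Gm37644 there had 0 regions. The long noncoding RNA Gm17028, which overlaps the outer Alx1 TSS on the same strand, had 1 region with 10 reads in its body. The small nucleolar RNA gene Gm25376, upstream of Alx1, had 1 region with 7 reads within 1 kb of its start, and that region lay 91.6 kb upstream of Alx1.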
